A study of Mus musculus with 74 samples.

Results

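*Lef1*, *Satb1*, and *Bach2*, transcription factor genes tied to the naive state of T cells, were followed from 0 to 120 h after activation of CD4+ T cells. Of the 4 genes chosen by name, 3 had a probe with a gene symbol on the array. *Tcf7* was not analysed here. *Lef1* had 4 probes, *Satb1* had 2, and *Bach2* had 1, out of 34773 probes with 1 gene symbol, and the probe with the highest mean stood for its gene among the 13817 genes tested. Intensities were measured on 74 Illumina bead arrays, 2 for each of 37 conditions, 1 from each of 2 independent experiments. Naive CD4+ CD62Lhi T cells came from spleens and lymph nodes, combined, of Balb/c mice aged 5 to 8 weeks, and were measured at 0 h with no cytokine or antibody added. All other cells were activated with anti-CD3 and anti-CD28 and measured at 3, 6, 12, 24, 35, 48, 73, 96, and 120 h. Th0 cells received antibodies against IFNg, IL4, and IL12, Th1 cells received IL-12 and anti-IL4, Th2 cells received IL4, anti-IL12, and anti-IFNg, and Th1/2 hybrid cells received IL12 and IL4. The Th1/2 cultures held no blocking antibody, and the cultures given IL-12 are also those without anti-IFNg.

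LEF1 belongs to the TCF/LEF family of HMG-box proteins, which bind DNA and, with beta-catenin or with Groucho/TLE corepressors, activate or repress genes; in T cells the family acts in thymic development and in the naive and memory states. SATB1 is a chromatin organizer that is abundant in thymocytes and T cells and has been studied at the Th2 cytokine locus. BACH2 is a repressor that pairs with small MAF proteins, competes with AP-1 factors for DNA, and restrains effector differentiation.

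*Lef1* lies on chromosome 3 (chr3:131110297-131224357), *Satb1* on chromosome 17 (chr17:51736187-51833290), and *Bach2* on chromosome 4 (chr4:32238413-32586109) of GRCm38.p6. RefSeq start sites of that build gave 4 promoter windows for *Lef1*, 5 for *Satb1*, and 1 for *Bach2*, each of 300 bases from 250 before to 50 after the start. They were searched on both strands for CTTTGA (TCF/LEF core), TGACTCA (AP-1 and BACH factors), TTC and GAA with 4 bases between them (STAT6), and TTGTTTAC (FOXO factors). Among 32851 promoters of this length, 16% held the TCF/LEF core, 5.2% the AP-1 motif, 6.95% the STAT6 motif, and 1.23% the FOXO motif. The *Lef1* starts farthest downstream are shown because they hold a STAT6 match and a pair of TCF/LEF matches, and the most upstream start of *Satb1* because that gene separated the cultures most; capitals mark matches on either strand.
Lef1, start 3, plus strand, chr3:131112541-131112840: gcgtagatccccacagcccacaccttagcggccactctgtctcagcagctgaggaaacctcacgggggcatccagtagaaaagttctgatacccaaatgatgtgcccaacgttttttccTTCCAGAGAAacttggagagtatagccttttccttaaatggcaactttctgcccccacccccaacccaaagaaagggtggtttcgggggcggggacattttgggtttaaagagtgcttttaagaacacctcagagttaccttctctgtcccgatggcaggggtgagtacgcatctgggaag
Lef1, start 4, plus strand, chr3:131156044-131156343: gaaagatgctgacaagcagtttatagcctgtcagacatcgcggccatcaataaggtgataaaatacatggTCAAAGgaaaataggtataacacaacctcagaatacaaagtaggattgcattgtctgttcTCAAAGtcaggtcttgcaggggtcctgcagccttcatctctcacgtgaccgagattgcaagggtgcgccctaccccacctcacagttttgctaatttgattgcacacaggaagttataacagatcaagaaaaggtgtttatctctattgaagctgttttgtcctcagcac
Satb1, start 1, minus strand, chr17:51833241-51833540: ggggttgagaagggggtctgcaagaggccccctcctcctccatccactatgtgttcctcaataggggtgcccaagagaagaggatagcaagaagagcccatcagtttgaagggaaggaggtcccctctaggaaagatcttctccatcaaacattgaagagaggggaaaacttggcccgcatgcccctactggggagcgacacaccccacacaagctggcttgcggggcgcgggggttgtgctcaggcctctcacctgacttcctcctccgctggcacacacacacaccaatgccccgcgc
The STAT6 match of *Lef1* start 3 began at position -131 from the start, and both TCF/LEF matches of start 4 lay on the opposite strand. The other *Lef1* windows, 2 of 4, held none of the motifs. None of the 5 *Satb1* windows held any of these motifs, and the *Bach2* window held 1 TCF/LEF match. A match is a string of letters and not a measured binding site.

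The 3 genes differed in how far their probes rose above background. Levels below are log2 intensities, and a probe's level cannot be set against another probe's. The *Lef1* probe ranged from 9.33 to 12.04 and lay above the median of all values (6.77) in all 37 conditions. The *Satb1* probe ranged from 13.41 to 15.69 and lay between the 98.8th and 99.9th percentile of probes, near the top of the scale. The *Bach2* probe ranged from 6.37 to 6.93 and exceeded the median of all values in the means of 3 conditions, those of Th1, Th2, and Th1/2 cells at 12 h, through which alone it entered the tests. *Lef1* and *Satb1* passed limma's F-test over time in all 4 cultures, with adjusted p between 3.27e-15 and 2.67e-07. This is a common result, since 65.2% of genes passed in Th0, 64.3% in Th1, 65.7% in Th2, and 68.7% in Th1/2 cells.

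**Figure D1:**
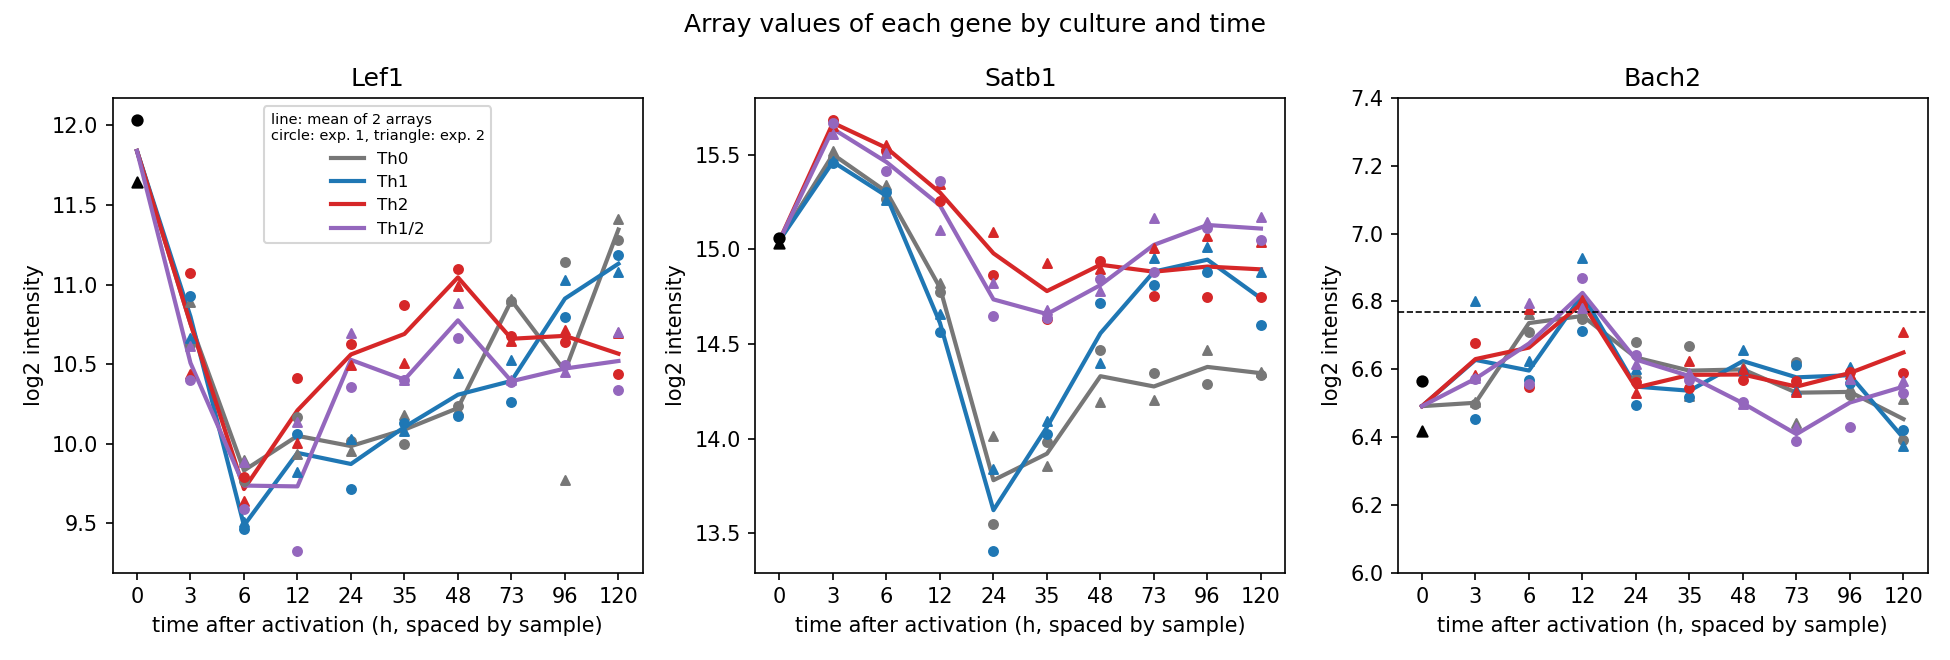
Log2 intensity of *Lef1*, *Satb1*, and *Bach2* by time after activation (h), with 1 point per array (circles experiment 1, triangles experiment 2) and lines through the means of 2 arrays; black points are naive cells at 0 h and the dashed line is the median of all values, 6.77. *Lef1* fell to a minimum at 6 h in the mean of the cultures, *Satb1* was highest at 3 h and lowest at 24 or 35 h, and *Bach2* stayed near the dashed line.

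*Lef1* fell within hours of activation in every culture and on its brightest probe stayed below the naive level to 120 h, when it was highest in the cultures without IL-4. Naive cells had 12.04 in experiment 1 and 11.64 in experiment 2. At 3 h the 8 arrays ranged from 10.40 to 11.07, and at 6 h from 9.46 to 9.89. No array of a later time reached the naive level on this probe. The mean of the 4 cultures fell by 1.14 on the log2 scale at 3 h (SE 0.19, adjusted p = 3.73e-06 from limma) and was 4.43-fold below naive cells at 6 h (-2.15, SE 0.19, adjusted p = 7.3e-13), with -1.01 between 3 and 6 h (adjusted p = 2.29e-09). At 3 h 21.5% of all genes were lower, and at 6 h 23.2%. Over 3 to 12 h, against its own naive array, *Lef1* differed by -1.90 in experiment 1 and by -1.52 in experiment 2. Over 24 and 35 h the difference from naive cells was -1.56 (SE 0.18, adjusted p = 6.23e-10), and over 73 to 120 h it was -1.14 (SE 0.18, adjusted p = 6.61e-07). Among all genes, 22.6% were lower over 3 to 12 h, 24.8% over 24 and 35 h, and 23.4% over 73 to 120 h. All differences from 0 h share the same 2 naive arrays.

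The late part of the partial return of *Lef1* was found in Th0 and Th1 cells. In Th2 and Th1/2 cells *Lef1* had risen earlier, from means of 9.72 and 9.74 at 6 h to 11.05 and 10.78 at 48 h. The 48 h arrays are in neither of the windows compared next. Between the means of 24 and 35 h and of 73 to 120 h, Th0 cells rose by 0.86 in *Lef1* (SE 0.16, adjusted p = 9.24e-06). Th1 cells rose by 0.82 (SE 0.16, adjusted p = 1.81e-05). The corresponding differences were 0.01 in Th2 cells (95% interval -0.30 to 0.32) and -0.003 in Th1/2 cells (-0.32 to 0.31). Over all genes, 21.4% rose in this way in Th0 cells and 21.3% in Th1 cells. In Th0 cells the experiments differed, with 1.10 and 0.63, and the Th0 array of experiment 2 at 96 h read 9.77 against 11.14 in experiment 1. That array and the Th1/2 array of experiment 1 at 12 h, at 9.33 against 10.14, stand apart from their partners in *Lef1*. They are the 2 arrays said below to stand apart, and neither was tested as an outlier.

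The IL-4 contrast, Th2 and Th1/2 cells minus Th0 and Th1 cells, set IL-4 against antibody to IL-4, and for *Lef1* it changed sign. At 24 h the arrays with IL-4 read 10.63 and 10.50 in Th2 and 10.36 and 10.70 in Th1/2 cells, against 10.02 and 9.95 in Th0 and 9.72 and 10.03 in Th1 cells. At 48 h they read 11.10 and 10.99 in Th2 and 10.66 and 10.89 in Th1/2 cells, against 10.24 and 10.21 in Th0 and 10.17 and 10.44 in Th1 cells. At both times the IL-4 arrays lay above all others. The contrast was 0.61 at 24 h (SE 0.17, adjusted p = 0.031), 0.45 at 35 h (SE 0.17, adjusted p = 0.198), and 0.64 at 48 h (SE 0.17, adjusted p = 0.0101), with 0.62 and 0.61 in the experiments at 24 h and 0.68 and 0.61 at 48 h. At 24 h 1.41% of genes were higher with IL-4, and at 48 h 3.37%. The call at 24 h was lost without either replicate of Th1 cells (0.54 and 0.69), either of Th2 cells (0.58 and 0.65), or Th1/2 replicate 2 (0.53, adjusted p = 0.204), and that at 48 h without replicate 1 of Th1 (0.58) or Th2 cells (0.62) or Th1/2 replicate 2 (0.59). Both calls were also lost with the second brightest probe (0.40, adjusted p = 0.603, and 0.55, adjusted p = 0.301) and with the mean of all probes (0.27, adjusted p = 0.29, and 0.34, adjusted p = 0.0562). Over 24 and 35 h it was 0.53, a 1.45-fold difference (SE 0.12, adjusted p = 0.0021), where 3.39% of genes were higher.

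By 120 h the order was turned. The arrays with IL-4 read 10.44 and 10.69 in Th2 and 10.34 and 10.70 in Th1/2 cells, against 11.28 and 11.41 in Th0 and 11.18 and 11.08 in Th1 cells, and the groups again did not overlap. The IL-4 contrast was -0.70 (SE 0.17, adjusted p = 0.00316), -0.85 in experiment 1 and -0.55 in experiment 2, where 5.78% of genes were lower; with the second brightest probe it was -0.77 and missed the threshold (adjusted p = 0.0678). At 73 and 96 h it was -0.12 and -0.11, within its error, but without the 2 arrays that stand apart it was -0.45 at 96 h (adjusted p = 0.0158). Over 73 to 120 h it was -0.31 (SE 0.10, adjusted p = 0.0133), where 15.9% of genes were lower; this call was lost without Th0 replicate 1 (-0.21, adjusted p = 0.0999), Th1 replicate 2 (-0.28), Th2 replicate 1 (-0.28), or Th1/2 replicate 1 (-0.28), and with 48 h counted as late (-0.07, adjusted p = 0.626). The change of the contrast from the middle to the late times was itself tested and was -0.84 (SE 0.16, adjusted p = 8.59e-05), with -1.03 and -0.65 in the experiments, and 8.24% of genes changed downwards. The IL-12 contrast, Th1 and Th1/2 minus Th0 and Th2 cells, gave -0.19, -0.10, and -0.13 for *Lef1* over the early, middle, and late times, none past the test; without the 2 arrays that stand apart the late value was -0.24 (adjusted p = 0.0244).

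**Figure D2:**
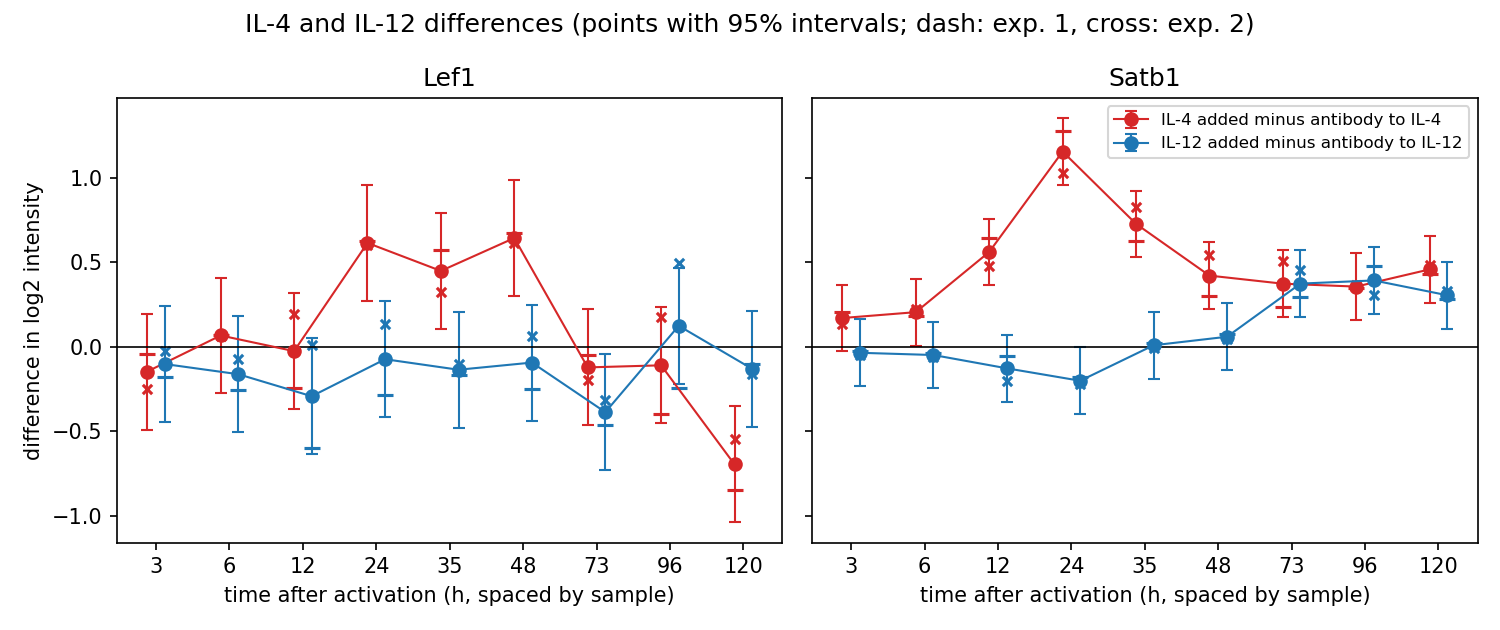
Difference in log2 intensity between cultures with IL-4 and cultures with antibody to IL-4 (red) and between cultures with IL-12 and cultures with antibody to IL-12 (blue), by time after activation (h), for *Lef1* (left) and *Satb1* (right), with 95% intervals from limma and the value in each experiment (dashes and crosses). The IL-4 difference of *Lef1* was 0.64 at 48 h and -0.70 at 120 h, whereas that of *Satb1* peaked at 1.16 at 24 h and was 0.46 at 120 h. The second brightest *Satb1* probe, not drawn here, gave 1.20 at 24 h and 1.05 at 120 h.

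*Satb1* rose within 3 h in all cultures, and at 24 and 35 h lay far below the naive level where IL-4 was blocked and nearer to it where IL-4 was given. Naive cells had 15.06 and 15.03. At 3 h all 8 arrays lay between 15.46 and 15.69, above both naive arrays, and the mean of the cultures was higher by 0.52 (SE 0.11, adjusted p = 1.31e-04), where 15.7% of genes were higher. At 12 h the difference from naive cells was -0.06 (SE 0.11, adjusted p = 0.698), and between 12 and 24 h *Satb1* fell by 0.71 (SE 0.07, adjusted p = 2.92e-11), as did 17.3% of genes. This step was fitted only with arrays of 1 experiment taken as independent. Over 24 and 35 h the difference from naive cells was -1.20 in Th0 and -1.21 in Th1 cells (adjusted p = 2.04e-11 and 1.6e-11, SE 0.12). It was -0.17 in Th2 cells (adjusted p = 0.267). Th1/2 cells had -0.35 (adjusted p = 0.0126), which missed the threshold without Th1/2 replicate 1 (-0.30), naive replicate 1 (-0.34), or naive replicate 2 (-0.36). Averaged over the cultures, the difference was 0.27 over 3 to 12 h (adjusted p = 0.0286; 20.8% of genes higher) and -0.25 over 73 to 120 h (adjusted p = 0.0383), and neither passed without naive replicate 1 (0.28 and -0.24) or naive replicate 2 (0.25 and -0.27).

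The IL-4 contrast of *Satb1* was positive at all 9 times and in both experiments. It was 0.17 at 3 h and 0.21 at 6 h, neither past the test, and 0.56 at 12 h (SE 0.10, adjusted p = 4.43e-04), when 0.463% of genes were higher. At 24 h, Th2 arrays read 14.87 and 15.09 and Th1/2 arrays 14.65 and 14.82, whereas Th0 arrays read 13.55 and 14.01 and Th1 arrays 13.41 and 13.84. The groups were separated, and the contrast of 1.16 was a 2.23-fold difference (SE 0.10, adjusted p = 1e-11), where 1.41% of genes were higher. It was then 0.73 at 35 h, 0.42 at 48 h, and between 0.36 and 0.46 from 73 to 120 h, with adjusted p of at most 0.00654. Per window it was 0.31 early, 0.94 in the middle, and 0.40 late, with SE between 0.06 and 0.07 and adjusted p of 1.49e-04, 4.08e-14, and 2.52e-07, where 2.00%, 3.39%, and 13.1% of genes were higher. The rise from the early to the middle times (0.63, adjusted p = 5.33e-06) and the decline to the late times (-0.55, adjusted p = 1.22e-05) passed the test of the difference, where 1.24% and 8.24% of genes changed in these directions. At 73 h the call was lost without replicate 2 of Th2 (0.31) or Th1/2 cells (0.30), and at 96 h without Th2 replicate 2 (0.28). With the second brightest probe the calls at 12, 35, and 48 h were lost (0.71, 0.82, and 0.55, with adjusted p of 0.335, 0.0568, and 0.212). On that probe neither change between windows passed, with 0.47 for the rise (adjusted p = 0.394) and -0.08 for the decline (adjusted p = 0.878).

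Th1 cells separated from Th0 cells in the late times. Over 24 and 35 h *Satb1* in Th1 cells differed from Th0 cells by -0.01 (95% interval -0.21 to 0.19). Between these times and 73 to 120 h, it rose by 1.01 in Th1 cells (SE 0.09, adjusted p = 6.97e-13), 0.48 in Th0 cells, and 0.39 in Th1/2 cells, whereas the difference in Th2 cells was 0.02 (95% interval -0.16 to 0.20), but 0.71 with the second probe (adjusted p = 0.00759). Of all genes, 21.3% rose in Th1, 21.4% in Th0, and 22.0% in Th1/2 cells. The late arrays ranged from 14.20 to 14.47 in Th0, 14.60 to 15.01 in Th1, 14.75 to 15.07 in Th2, and 14.88 to 15.17 in Th1/2 cells, so every Th0 array lay below all others. Th1 exceeded Th0 cells by 0.52 (SE 0.08, adjusted p = 6.06e-06; 3.17% of genes higher), Th2 by 0.56 (adjusted p = 3.52e-07; 11.0% higher), and Th1/2 by 0.75 (adjusted p = 3.66e-10; 9.98% higher). Of the neighbours in the order above Th0, Th2 minus Th1 was 0.04 (95% interval -0.12 to 0.20) and Th1/2 minus Th2 was 0.19 (0.03 to 0.35, adjusted p = 0.242). The latter passed with the experiment as a random block within time points (adjusted p = 0.0419), with a replicate block within each time point (adjusted p = 0.0305), and without Th2 replicate 2 (0.34, adjusted p = 0.04). Th1/2 minus Th1 was 0.23 (adjusted p = 0.0441; 7.01% higher), a call lost without Th1 replicate 1 (0.14), Th1/2 replicate 1 (0.30), or Th1/2 replicate 2 (0.16).

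The late IL-12 contrast of *Satb1* was 0.36 (SE 0.06, adjusted p = 8.94e-06), 0.35 and 0.36 in the experiments, where 3.49% of genes were higher. It was -0.07 early and -0.10 in the middle times, and its change from the middle to the late times was 0.45 (SE 0.09, adjusted p = 0.00114), where 1.03% of genes changed upwards. Added IL-12 and the absence of anti-IFNg cannot be told apart in this contrast. Late Th1/2 cells exceeded Th0 cells by 0.33 less than the summed excess of Th1 and Th2 cells over Th0 cells. This non-additivity did not pass the test (value -0.33, SE 0.11, adjusted p = 0.126). It passed where the experiment was a random block within time points (adjusted p = 0.0118) and without Th2 replicate 1 (-0.47).

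Over the 9 times, *Satb1* passed the F-test for a difference between cultures in 5 of 6 pairs, all but Th1/2 against Th2 cells, and *Lef1* in 3, Th2 and Th1/2 against Th0 and Th2 against Th1 cells. The adjusted p of Th2 against Th0 cells was 4.14e-11 for *Satb1* and 0.00762 for *Lef1*, with 16.7% of genes called. For Th1/2 against Th0 cells 16.5% of genes were called, for Th2 against Th1 12.5%, for Th1/2 against Th1 9.84%, for Th1 against Th0 2.32%, and for Th1/2 against Th2 1.98%. Th1 against Th0 cells separated *Satb1* (adjusted p = 0.00316) and not *Lef1* (adjusted p = 1), and Th1/2 against Th2 cells separated neither.

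The second brightest probes had r of 0.94 to the brighter probe over the 37 condition means for both genes, which share their arrays, but differed from it in several comparisons. For *Satb1* the second probe had a mean of 9.29 and a wider spread of condition means (SD 0.89 against 0.51). With it, the rise at 3 h was 1.39 (SE 0.28, adjusted p = 6.49e-05). From 3 to 24 h its mean went from 10.50 to 7.73 in Th0 and from 10.67 to 7.44 in Th1 cells, and also from 11.30 to 8.99 in Th2 and from 11.01 to 8.58 in Th1/2 cells. Over 24 and 35 h its difference from naive cells was -1.67 in Th0 and -1.60 in Th1 cells, against -0.54 in Th2 cells (adjusted p = 0.147). The value of Th1/2 cells was -0.71 (adjusted p = 0.0505). It gave an IL-4 contrast of 0.54 early, 1.01 in the middle, and 0.93 late, each past the test, so that the late decline of this contrast was -0.08 (adjusted p = 0.878) and not -0.55. The late IL-12 contrast was 0.50 (SE 0.14, adjusted p = 0.0191). For *Lef1* the second probe, with a mean of 8.86, gave an IL-4 contrast of 0.36 in the middle times (adjusted p = 0.356) and -0.30 late (adjusted p = 0.188), and a change between them of -0.66 (SE 0.26, adjusted p = 0.076). On it naive arrays read 10.31 and 9.55, and the latter was passed by Th0 and Th1 arrays at 96 and 120 h, up to 10.02, and by 1 Th2 array at 48 h (9.84). Its difference from naive cells missed the threshold at 73 h (-0.74, adjusted p = 0.0512) and at 120 h (-0.58, adjusted p = 0.143), when Th0 cells had -0.11. The other probes of *Lef1* had means of 6.61 and 6.53, near background.

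**Figure D3:**
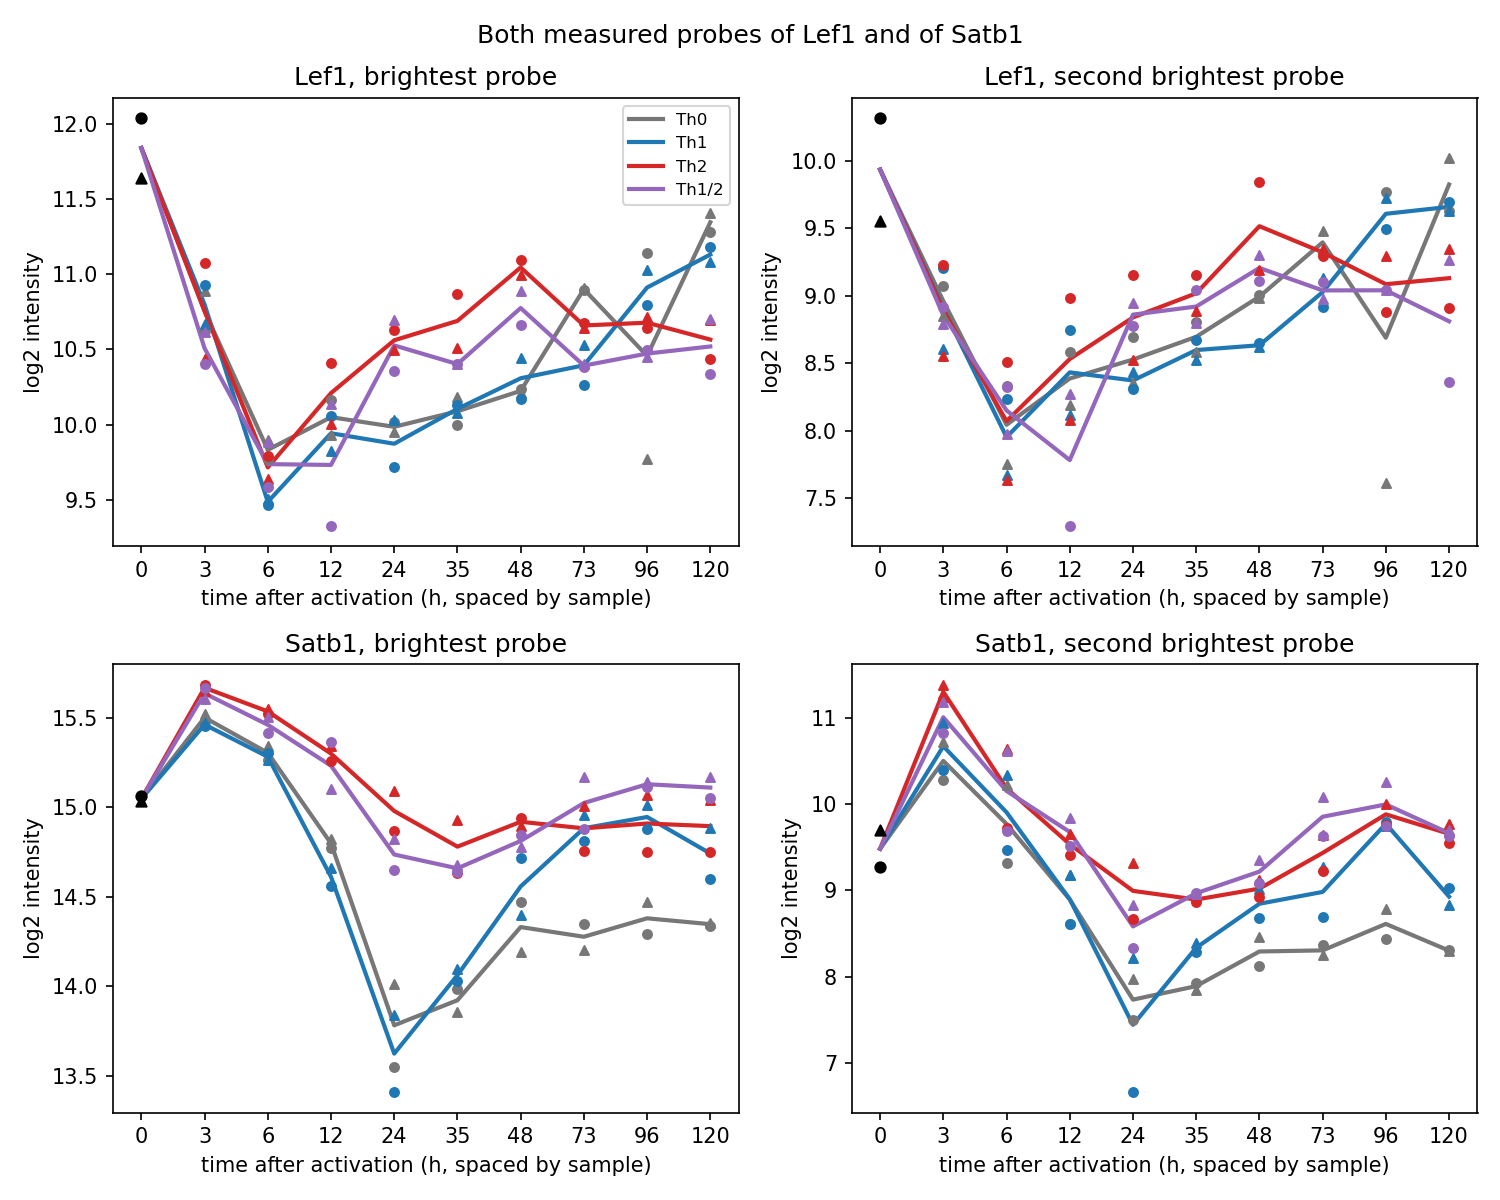
Log2 intensity of the brightest (left) and second brightest (right) probe of *Lef1* (top) and *Satb1* (bottom) by time after activation (h), points and lines as in the plot of array values. The vertical scales differ; Th0 and Th1 cells lay below Th2 and Th1/2 cells at 24 h on both *Satb1* probes.

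*Lef1* and *Satb1* followed different paths out of the naive state. Over the 37 condition means r was 0.04, and over the 24 conditions from 24 h on it was 0.51; conditions share arrays, normalization, and experiments, and no test applies. Th0 cells ended with late means of 10.90 for *Lef1* and 14.33 for *Satb1*, Th1 cells with 10.81 and 14.86, Th2 cells with 10.63 and 14.90, and Th1/2 cells with 10.46 and 15.09. The order of the cultures by *Lef1* was the reverse of that by *Satb1*, but most pairs did not pass for *Lef1*. Th1/2 minus Th0 cells was the only late *Lef1* pair past the test in the fit without a block (-0.44, SE 0.14, adjusted p = 0.0165), where 12.6% of genes were lower. This call was lost without Th0 replicate 1 (-0.24) or Th1/2 replicate 1 (-0.38). It was also lost with the second brightest probe (-0.34, adjusted p = 0.346) and with 48 h counted as late (-0.19, adjusted p = 0.292). Th2 minus Th0 cells passed without Th0 replicate 2 (-0.47) and without the 2 arrays that stand apart (-0.49). Th1/2 minus Th1 cells (-0.35, adjusted p = 0.09) passed with the experiment as a random block within time points (adjusted p = 0.0459), with array weights (adjusted p = 0.0427), without either replicate of Th0 cells (adjusted p = 0.0402), and without the 2 arrays that stand apart (adjusted p = 0.00867).

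**Figure D4:**
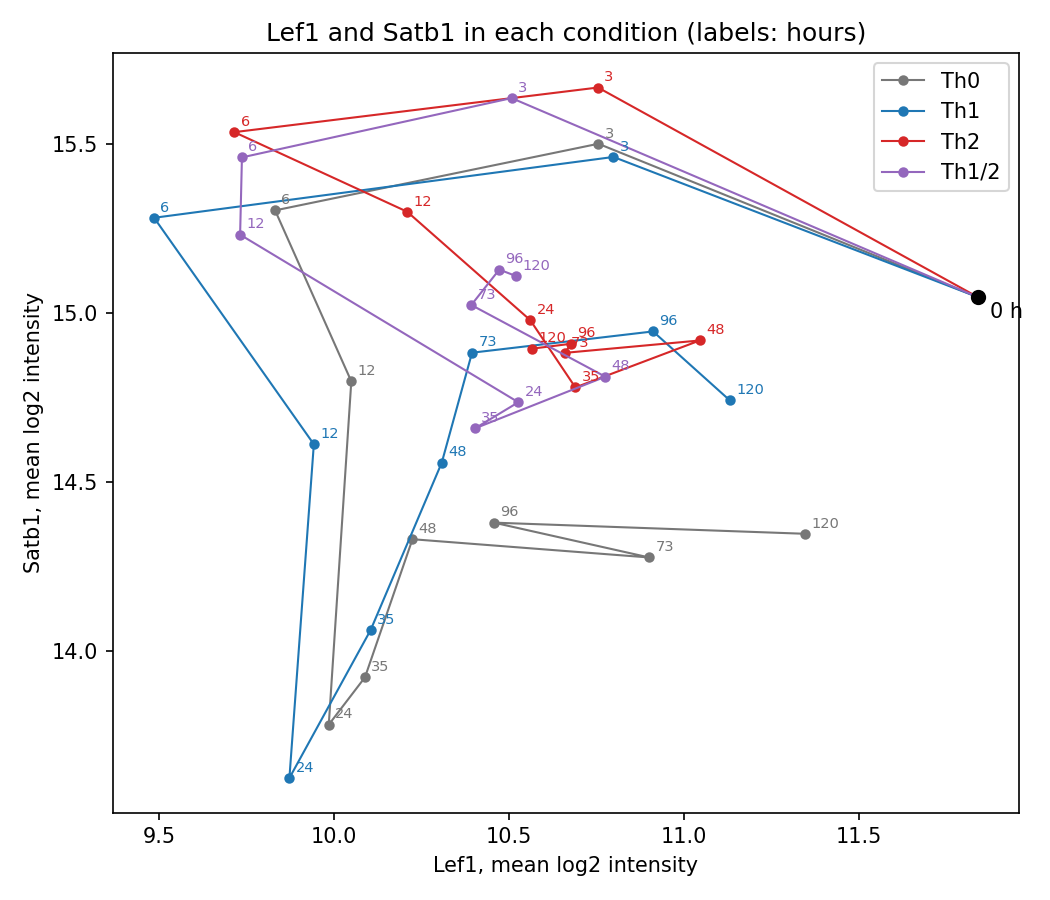
Mean log2 intensity of *Satb1* against that of *Lef1* in each condition, with lines joining the times of a culture (labels are hours) from naive cells at 0 h. At 24 and 35 h Th0 and Th1 cells lay low on both axes. Late Th0 cells had means of 10.90 for *Lef1* and 14.33 for *Satb1*, which differed from naive cells by -0.94 and -0.71.

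*Bach2* gave no level clearly above background. Naive arrays read 6.57 and 6.42, and at 12 h the 8 arrays ranged from 6.71 to 6.93. Because the probe entered through its 12 h means alone, its differences are given with no test. Over 3 to 12 h the difference from naive cells was 0.19, with 0.08 in experiment 1 and 0.31 in experiment 2, and 0.12 without naive replicate 2. The IL-4 and IL-12 contrasts lay between -0.05 and 0.03 in all windows. At this signal, changes of *Bach2* were not measurable.

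Genes most like each member were taken by r over the 37 condition means among genes with an SD of at least 0.5. The 5 highest for *Lef1* were *Prex1* (0.84), a Rac exchange factor, *Fam78a* (0.83), *Myl12b* (0.82), a myosin light chain, *Sit1* (0.82), a T-cell adaptor, and *Adcy7* (0.81), an adenylate cyclase. The 3 most opposed were *Wars* (-0.83), the tryptophanyl-tRNA synthetase, *Ntmt1* (-0.82), and *Odc1* (-0.82), the first enzyme of polyamine synthesis. For *Satb1* they were *Tgfbr1* (0.81), a TGF-beta receptor, *Traf2* (0.79) and *Map3k14* (0.79), which act in NF-kB signalling, *Vamp2* (0.78), and *Srr* (0.77), opposed by *Igsf9* (-0.87), *Eno3* (-0.87), an enolase, and *Cisd1* (-0.85). For the dim *Bach2* probe the range was 0.76 for *Wdr83os*, 0.75 for *Cd320*, 0.74 for *Npw*, *Alcam*, and *Prpf40b*, and -0.76 for *Plekhm3*, -0.75 for *Abcb9*, and -0.74 for *Cox7a2l*. That probe lay at background and its condition means had an SD of 0.10, under the 0.5 asked of the other genes. Its r values therefore cannot be read as likeness to a measured course of *Bach2*.

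TCF/LEF relatives and cofactors did not move as a block. Of 17 tested, 3 rose and 6 fell at 24 and 35 h, with a median of -0.16 against 0.04 over all genes, and 3 rose and 5 fell late. Of all genes, 27.0% rose and 24.8% fell in the middle times, and 21.8% rose and 23.4% fell late. *Bcl9l*, a beta-catenin cofactor, fell, with differences from naive cells of -2.77 in the middle times and -2.25 late. *Tle4*, a Groucho-type corepressor, did so too, with -1.90 and -2.08. *Tle6* rose late by 1.32 and was higher with IL-4 by 1.52 (adjusted p = 8.4e-17), and *Tle5* fell early (-1.97) and was 0.11 from naive cells late (adjusted p = 0.64). The middle IL-4 contrast was higher in 5 and lower in 0 of the 17, median 0.10 against -0.01, where 3.39% of all genes were higher. Of 16 genes of the destruction complex and Wnt receptors, 2 rose and 5 fell late. *Axin2*, a common target of Wnt signalling, fell, with -2.18 in the middle times and -1.68 late. Late differences were -1.07 for *Axin1* and -0.97 for *Dvl1*, and *Fzd7*, a Wnt receptor, rose late by 3.29 (adjusted p = 2.4e-11).

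Of 9 genes listed as BACH and small MAF factors or their partners, 2 rose and 2 fell late, near the shares of all genes (21.8% and 23.4%). *Mafg* rose early by 1.90 and late by 1.48, *Men1* rose late by 0.59, *Bach1* fell in the middle times (-1.01), and *Nfe2l1* rose early by 0.90. Of 5 SATB relatives and chromatin partners tested, *Smarca5* rose in the middle times by 1.15, *Ctcf* fell late (-0.57), *Rad21* rose late by 0.48, and *Cux1* was higher late with IL-4 by 0.29.

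Genes of naive and central memory T cells were mostly lower. Of 16 tested, 0 rose and 13 fell in the middle times (median -1.36 against 0.04 over all genes), and 0 rose and 12 fell late, where 24.8% and 23.4% of all genes fell. *Klf2*, a regulator of T-cell trafficking, differed from naive cells by -5.54 in the middle times and -2.78 late, and *Il7r*, the IL-7 receptor chain, by -4.82 and -2.09. The values were -3.85 and -1.15 for *Igfbp4* and -3.11 and -2.87 for *Il6ra*. *Il7r* had an IL-4 contrast of 1.50 in the middle times and an IL-12 contrast of 0.91 late. Over the 16 genes, the middle IL-4 contrast was higher in 3 and lower in 5, median -0.04 against -0.01 over all genes. Their late IL-12 contrast was higher in 1 and lower in 4, median -0.08 against -0.01. Of all genes, 3.39% were higher in the middle IL-4 contrast and 3.49% in the late IL-12 contrast. The shares of all genes that were lower are not given here, so the counts of lower genes cannot be set against them. Of 11 effector genes that the literature ties to the members, 7 rose and 1 fell late, against 21.8% and 23.4% of all genes, among them *Il2ra* (3.34) and *Bhlhe40* (3.86), while *Il4* had a late IL-4 contrast of 4.42 and *Ifng* a late IL-12 contrast of 2.39. The largest absolute value of *Ifng* among its middle and late changes and late cytokine contrasts was 3.23, in another of these comparisons.

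Markers of T cells were present throughout, 8 of 8 with a probe above the median of all values in each group, with a summed intensity of 95842 to 114184 in naive cells and 43879 to 94128 in the cultures. Several fell with *Lef1*, such as *Cd3g* (middle -1.64) and *Cd4* (middle -0.90), and *Cd4* was -0.29 from naive cells late (adjusted p = 0.271). The summed intensities of 4 B-cell markers were 1038 to 1461 in naive cells and 422 to 1682 in the cultures, of 5 myeloid markers 1346 to 2196 and 423 to 2268, of 2 red blood cell markers 3163 to 4896 and 164 to 5006, and of 4 NK-cell markers 743 to 747 and 401 to 3109. The summed intensity of 2 CD8 T-cell markers was 3291 to 5440 in naive cells and 2383 to 7649 in the cultures. *Pax5*, *Itgam*, *Ncr1*, and *Cd8a* were not above the median in any group, whereas *Cd8b1* was. Most other markers were above it in naive cells, with 3 of 4 B-cell, 4 of 5 myeloid, and 3 of 4 NK-cell markers. *Lyz2* was -3.46 from naive cells late. The part of these genes in the results was not tested, and in bulk RNA fewer cells of a type and less RNA per cell cannot be told apart.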

How the data were processed

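Arrays of the Illumina Mouse Sentrix-6 type were used for 74 RNA samples. The deposited values are probe intensities on a linear scale, background-corrected and quantile-normalized by the authors; the sources used here do not name the software. Array medians lay between 107 and 111, so log2 was taken with no further normalization. A probe entered when it had 1 gene symbol and its mean exceeded the median of all values (6.77) in at least 1 of 37 conditions, which left 23115 probes of 13817 genes. One mean per condition was fitted in limma 3.58.1 (R 4.3.3) on 37 residual degrees of freedom, with two-sided moderated tests and Benjamini-Hochberg adjustment across the genes tested (threshold 0.05). The number of arrays, 2 per condition, limits the precision. Windows were 3 to 12 h (early), 24 and 35 h (middle), and 73 to 120 h (late). The replicate number is the experiment; within time points, residuals of arrays of 1 experiment had a median correlation of 0.536 (lowest 0.0108, 54 pairs), and the experiment as a block was an alternative. Others were the normalization, dim-probe filter, probe choice, variance model, array weights, and each replicate left out. Slides and scans were not known. The steps were tested on simulated data. A further promoter motif is not reported here. Members and gene lists were chosen with earlier results of these data known, and the tests of change between windows after their values were seen. Named genes are the members, up to 4 genes per list with the largest middle or late change or late cytokine contrast, and the 5 most and 3 least alike genes; *Cd4* and the marker genes at background were named after their values were seen.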

Additional observations from a re-analysis of the deposited data

Results flagged for a closer look

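The cytokine contrasts of *Lef1* and *Satb1* differed between windows of time by limma's test of the difference. For *Lef1* the IL-4 contrast changed by 0.57 from the early to the middle times (adjusted p = 0.0342; lost without either replicate of Th1 cells, 0.50 and 0.64, either of Th2 cells, 0.60 and 0.53, or Th1/2 replicate 1, 0.50) and by -0.84 from the middle to the late times (adjusted p = 8.59e-05). For *Satb1* it changed by 0.63 (adjusted p = 5.33e-06) and then by -0.55 (adjusted p = 1.22e-05), and the IL-12 contrast changed by 0.45 from the middle to the late times (adjusted p = 0.00114). All 5 changes had the same sign in both experiments. With the second brightest probe none passed the test, and the late change of the IL-4 contrast of *Satb1* was then -0.078. Conditions held 2 arrays each, so no sample was tested as an outlier.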

How the results depend on the processing

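Of 26 results of *Lef1* and *Satb1* over the windows, 15 kept their direction and side of the threshold under every alternative run, as did 35 of 54 single time points. So did 21 of 28 results of single cultures and pairs of cultures. None changed sign past the threshold. The fixed replicate block changed no call. With the second brightest probe, calls were lost for *Lef1* in the late (-0.30) and middle (0.36) IL-4 contrast and its changes between windows (0.43 and -0.66), and for *Satb1* in the early (0.56) and late (-0.20) change, in the changes of its IL-4 contrast (0.47 and -0.078), and in that of its IL-12 contrast (0.55). With the mean of all probes, they were lost for the middle IL-4 contrast of *Lef1* (0.23) and its rise from the early times (0.23), and for *Satb1* in the late change (-0.23) and the late change of its IL-4 contrast (-0.31). With array weights the early and late change of *Satb1* (0.27, adjusted p = 0.0518, and -0.25, adjusted p = 0.0681) missed the threshold. With 48 h counted as late, the IL-4 contrast of *Lef1* was -0.071. Without the 2 arrays that stand apart, the late IL-12 contrast of *Lef1* passed (-0.24, adjusted p = 0.0244). The random block and a replicate block within each time point, added after seeing the data, passed the non-additivity of *Satb1* (-0.33, adjusted p = 0.0118 and 0.008). *Bach2* moved between the experiments, early 0.076 and 0.31, late -0.046 and 0.12. Leaving out 1 replicate at a time gave -0.41 to -0.21 for the late IL-4 contrast of *Lef1* and 0.50 to 0.64 for its rise from the early times. For *Satb1* it gave 0.25 to 0.28 for the early change, -0.29 to -0.22 for the late change, and -0.47 to -0.19 for the non-additivity, and for *Bach2* 0.12 to 0.27 for the early change. The causes were not tested. The *Bach2* values carry no test, since its probe lay at background.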
